A study of Zea mays with 38 samples.

Results

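Maize seedling leaves were compared after a short and a long exposure to UV-B, the part of sunlight that reaches plants with enough energy to damage DNA, proteins and membranes. The comparison asked whether the UV response at 12 h differed from that at 2 h. It used 14 of the 38 samples of the series, or 7 of its 19 slides, chosen by the time and slide letter in the sample titles: slides a, c and d at 2 h and slides a, b, c and d at 12 h. All plants were of the inbred line B73, and each group was seedling leaf either exposed to UV-B or kept as its control for the same 2 h or 12 h. The design text describes groups of approximately 20 plants per treatment and time. UV dose and plant age are not given in the sources used here. Slide b of 2 h was not analysed here.

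Each slide was a 2-colour cDNA array that carried 1 UV sample and the control of the same letter. The UV sample carried Cy5 on slides lettered a or b, and Cy3 on those lettered c or d. This left 1 slide at 2 h and 2 slides at 12 h with UV on Cy5, and 2 slides at each time with UV on Cy3. A response is log2(UV/control) of a slide, averaged within each dye orientation and then over both orientations. The difference is the response at 12 h minus that at 2 h. Slide a at 2 h was the sole slide of its orientation at that time, so it carried as much weight in the 2 h response as slides c and d together. Nothing in the labels ties different slides of 1 time to different plants or RNA extracts. The p-values therefore measure only a spread between slides, which may be technical. That spread was estimated within each time and orientation over all 19 slides of the series, not over the compared slides alone. Slide a of 2 h was alone in its time and orientation, so it added nothing to that spread.

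Each channel of these slides held 19620 to 20116 spots with a measured intensity, and the median intensity was 143739 to 396176 at 2 h and 348208 to 626914 at 12 h. Of 19863 features tested, 14448 (72.7%) were brighter than the brightest of 7 foreign sequences on the slides, which had a mean log2 intensity of 16.76. Features named below that were not brighter than it are BQ529237, AW076351, AN3 (BQ169281), pme1, tacs1 (BQ279773), CNX (AW257966), Sod4A, aoc1 (AI691968), glb1, HP1, mn1, rad51a, cc4, gpa1 and a2, with mean log2 intensities from 14.87 to 16.74. Of 14 features of leaf genes (antenna proteins, Rubisco, C4 enzymes), 12 lay above it, with a median log2 intensity of 20.33. Of 9 features of kernel and root genes, 6 lay above it too, with a median of 18.01 against 17.96 for all features. Log ratios of 2 h slide a correlated negatively with those of 2 h slides c and d across features (r = -0.26 and -0.31), while slides c and d of 2 h correlated at 0.41. The 12 h slides correlated with each other at 0.06 to 0.48. These are correlations across features, which share slides and are not independent replicates.

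In leaves, UV-B is known to cross-link RNA and proteins in ribosomes, to raise reactive oxygen, and to turn on genes for phenolic sunscreens, protein repair and defence. Genes for photosynthesis are known to lose transcripts under it. Early and late responses can therefore involve different genes. A control for each time takes out changes of the day that UV and control samples share. It does not separate length of exposure from a UV response that depends on the time of day.

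The UV response differed between 12 h and 2 h for 179 of 19863 features, or 0.901%, at an adjusted p under 0.05. The response was higher at 12 h for 159 features (0.8%) and lower for 20 features (0.101%). Among 1165 features with an informative gene name, 6 were higher and 1 was lower. At 2 h, 939 features (4.73%) had a UV response, 429 up (2.16%) and 510 down (2.57%). At 12 h, 724 features (3.64%) had one, 416 up (2.09%) and 308 down (1.55%). Of the 159 features called higher, 117 were down at 2 h and not called at 12 h, 25 were up at 12 h and not called at 2 h, 10 were down at 2 h and up at 12 h, and 7 were called at neither time. Of the 20 called lower, 13 were up at 2 h and not called at 12 h, 5 were down at 12 h and not called at 2 h, 1 was up and then down, and 1 was called at neither time.

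These counts depended on the model and on single slides. With a single additive dye term in place of orientation means, 2 features passed. In a fit of the 7 slides alone, 0 passed with limma, against 2699 at an unadjusted p under 0.05 in that fit. At that unadjusted threshold the fit of all slides had 1864 higher (9.38%) and 1081 lower (5.44%). Slide a is the only slide of 2 h with UV on Cy5, so the fit that leaves out only this slide also has the additive dye term. The part of the slide alone was not separated from that change there. A contrast of the slides with UV on Cy3, added after seeing the data, uses neither slide a nor that term. It also leaves out slides a and b of 12 h. In that contrast 49 features passed, 21 higher and 28 lower, and 23 of the 49 were among the 179. Without slide a of 2 h, 82 features passed, against 2 with the additive term and all slides, and 34 of the 82 were among the 179. Without slide d of 2 h, 1101 passed, and without slide a, c or d of 12 h, 62, 33 and 56. The 939 calls at 2 h (429 up, 510 down) became 838 with the additive term and all slides (548 up, 290 down), 303 with that term and without slide a, and 1607 without slide d, and the 724 at 12 h became 123, 154, 16 and 37 without slides a to d of 12 h. Of the 159 features called higher, 123 had their lowest 2 h value on slide a. That share was not counted over all features, and slide a has the largest weight of the 2 h slides. No conclusion is therefore drawn from this count. The split of calls moved as well: loess within printed subarrays gave 111 higher and 50 lower, and the authors' deposited processed values gave 116 higher and 35 lower. For the 2 h response, the same settings gave 690 up and 421 down and 975 up and 409 down, and scaling between slides gave 26 up and 58 down. For the 12 h response, the authors' deposited processed values gave 675 up and 320 down.

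**Figure D1:**
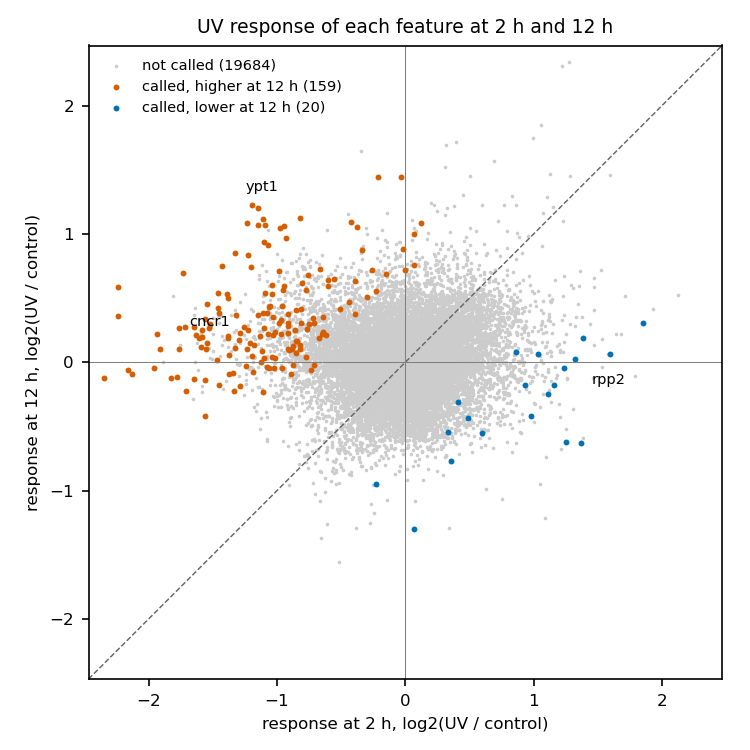
Fitted UV response of each of the 19863 features at 2 h (horizontal axis) and at 12 h (vertical axis), both as log2(UV/control), with the line of equal response dashed. The 159 features called higher at 12 h lie mostly left of 0 on the 2 h axis, and the 20 called lower lie mostly right of it.

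Position on the slide moved with the calls. The slides were printed in 48 subarrays, in 12 rows and 4 columns. The 3 subarrays in rows 9 to 11 of column 1 held 4.75% of the features tested and 67 of the 159 features called higher (42.1%). Features given below that lie there include cncr1, pk8-a, ec2e (AI857211), bap-3b, AI947505, PIP1-3, gst12 and NIR (AI947717). They also include nfd106, nip3a, hsp18a, elfa5 (AI833933), aoc1 (AI691968) and wx1 (AI833967). In those subarrays the median log ratio was -0.74 on slide a of 2 h, 0.14 on slide c and 0.08 on slide d, and it lay between -0.07 and 0.33 on the 12 h slides. In the subarray of row 11 and column 1 alone, the median on slide a of 2 h was -1.36, and 35 features were called higher. The subarrays of rows 3 and 4 of column 1 had medians of -0.51 and -0.83 on slide a, with 1 and 0 features called higher. Without the 3 subarrays, 60 features passed, 51 higher and 9 lower. With loess within subarrays over all features, 161 passed, and 98 of them were also called in the main fit. Among named features of this area, the difference went from 1.71 to 0.95 for cncr1 and from 1.44 to 0.45 for pk8-a. It went from 0.88 to 0.40 for ec2e (AI857211), and these features no longer passed. That of bap-3b went from 1.20 to 0.93 and still passed (adjusted p = 0.0429). The part of this area of the slide in the calls was not tested beyond these settings.

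**Figure D2:**
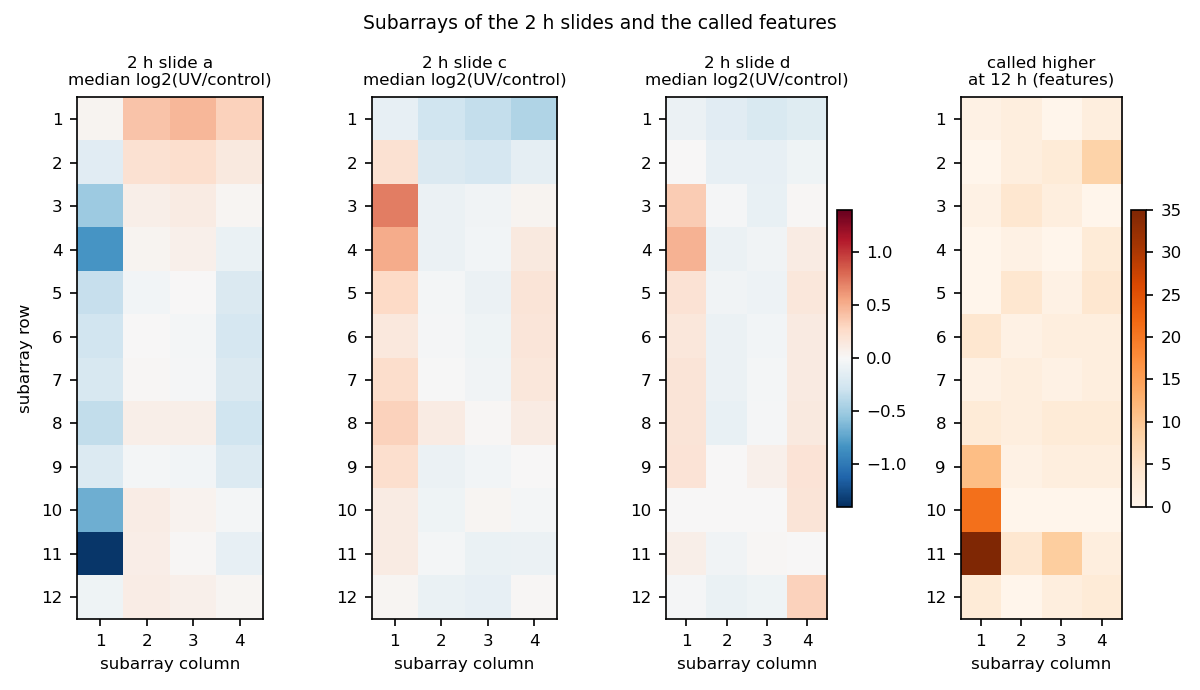
Median log2(UV/control) of the features in each of the 48 subarrays on the 3 slides of 2 h, and the number of features called higher at 12 h in each subarray. In column 1 the median of slide a is -1.36 in row 11 and -0.83 in row 4, against 0.04 in row 1 and -0.06 in row 12, and row 11 holds 35 called features and row 4 holds 0.

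Among named features that passed, the largest higher response at 12 h was that of ypt1 (AW231563), a small GTP-binding protein of the Rab family that directs vesicle traffic. Its log ratios at 2 h were -0.97 on slide a, -2.37 on slide c and -0.27 on slide d. At 12 h they were 1.28, 0.93, 1.43 and 1.17 on slides a to d. All 2 h slides lay below 0 and all 12 h slides above 0.9, without overlap and in both orientations. The difference was 2.35 ± 0.40 (SE, 95% interval 1.47 to 3.22), a 5.09-fold change in the UV/control ratio, with an adjusted p of 0.0212. The response was -1.15 ± 0.31 at 2 h (adjusted p = 0.0571) and 1.20 ± 0.25 at 12 h (adjusted p = 0.0298). Without slide a of 2 h, in the fit with the additive dye term, the difference was 2.57 (adjusted p = 0.0379), against 2.41 with that term and all slides (adjusted p = 0.0554). It lay between 1.46 and 2.87 over 24 alternative settings and passed in 13 of them. It missed the threshold without slide a, c or d of 12 h, at 2.26, 2.28 and 2.41 (adjusted p = 0.076, 0.101 and 0.0631). The feature lies in the subarray of row 3 and column 1. The medians of that subarray at 2 h were -0.51 on slide a, 0.72 on slide c and 0.35 on slide d. With loess within subarrays the difference of ypt1 was 2.14 (adjusted p = 0.039).

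Levels in each channel of the slides add to the ypt1 ratios. The normalized log2 intensity of the control samples was 20.99, 22.57 and 21.87 at 2 h and 19.04, 18.95, 19.13 and 18.72 at 12 h. The UV samples had 20.01, 20.20 and 21.60 at 2 h and 20.32, 19.87, 20.56 and 19.88 at 12 h. The control samples at 12 h minus 2 h stood at -2.85 ± 0.58 (SE, adjusted p = 0.00762), while UV samples changed by -0.44 ± 0.58 (adjusted p = 0.835). The other Rab gene feature with the smallest p, yptm3 (BQ134575), had a difference of -0.27 ± 0.13 (adjusted p = 0.35). In total 1 of 6 Rab features was called higher and 0 lower, against 0.8% and 0.101% of all features tested. Their median difference was 0.06, against -0.02 for all features tested.

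The one named feature called lower at 12 h was rpp2 (BU093490), an acidic protein of the ribosomal stalk. Its log ratios were 0.89, 2.15 and 1.36 on slides a, c and d of 2 h, and -0.24, 0.05, 0.04 and 0.23 on slides a to d of 12 h. The slides of both times did not overlap. The response fell from 1.32 ± 0.16 at 2 h, 2.5-fold (adjusted p = 0.00216), to 0.02 ± 0.13 at 12 h (adjusted p = 0.951). The difference was -1.30 ± 0.20 (95% interval -1.74 to -0.86, adjusted p = 0.0161), and it ranged from -1.63 to -0.50 over 24 settings, of which 15 passed. With the additive dye term it was -1.396 on all slides (adjusted p = 0.0635) and -1.63 without slide a of 2 h (adjusted p = 0.0179). It missed the threshold without slide a or c of 12 h, at -1.23 and -1.25 (adjusted p = 0.0535 and 0.0779). The feature lies in the same subarray as ypt1, in row 3 of column 1. With loess within subarrays its difference was -1.37 (adjusted p = 0.0402).

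Features assigned to rpp2 did not move together. A second one (AI461569) had log ratios of -0.43, -1.75 and -0.73 at 2 h and 0.53, 0.74, 1.02 and 0.96 at 12 h. Its difference of 1.64 ± 0.35 had the opposite sign and did not pass (adjusted p = 0.0533). The remaining 3 features of the gene had differences between -0.61 and 0.54, none of which passed. Non-overlap of all 7 slides is common on these arrays: of 18434 features measured on all of them, 1088 (5.9%) were higher and 789 (4.28%) lower at 12 h on every slide. Of the called features with all 7 slides, 45 of 134 higher and 10 of 12 lower features did not overlap.

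The other named features that passed were all higher at 12 h, and slide a of 2 h was far below slides c and d for 4 of them. For cncr1 (AI947674), cinnamoyl-CoA reductase of the lignin branch of phenylpropanoid synthesis, the 2 h slides gave -2.56, -1.31 and 0.08. The 12 h slides gave -0.25, -0.50, 0.76 and 0.46, and the groups overlapped. Its response was -1.59 ± 0.21 at 2 h (adjusted p = 0.00344) and 0.12 ± 0.17 at 12 h, a difference of 1.71 ± 0.28 (adjusted p = 0.0182). With the additive dye term this was 1.51 on all slides (adjusted p = 0.127) and 1.02 without slide a of 2 h (adjusted p = 0.251), and it was 0.95 with loess within subarrays (adjusted p = 0.118). The feature lies in the subarray of row 11 and column 1. Over 22 settings cncr1 passed in 11, with values from 0.49 to 2.05.

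AN3 (BQ169281), also called GIF1, is a transcriptional coactivator that promotes cell proliferation in growing leaves. Its log ratios were -4.51, -0.51 and 0.13 at 2 h and 0.37, -0.67, 0.09 and -0.27 at 12 h. Slide a of 2 h stood apart from the other 6 slides, which overlapped. The difference was 2.23 ± 0.42 (adjusted p = 0.034). With the additive dye term it was 1.64 on all slides (adjusted p = 0.362) and 0.17 without slide a of 2 h (adjusted p = 0.929). The mean log2 intensity of the feature was 15.63, below 16.76 of the brightest foreign sequence. A second AN3 feature (AI770702) gave 1.33 ± 0.49 (adjusted p = 0.235). Over 23 settings BQ169281 passed in 8, with values from 0.10 to 2.49. It was the only feature called among 16 of growth coactivators, against 0.8% higher of all features. Their median difference was -0.01.

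The same held for pk8-a (AI737252), with -2.62, -0.12 and 0.04 at 2 h and 0.46, -0.45, 0.47 and -0.04 at 12 h. Its difference was 1.44 ± 0.25 (adjusted p = 0.0249), and with the additive dye term 1.14 on all slides (adjusted p = 0.254) and 0.41 without slide a of 2 h (adjusted p = 0.681). For ec2e (AI857211), also named rpl39 and a ribosomal protein gene, the slides gave -1.41, -0.04 and 0.29 at 2 h and 0.19, 0.09, 0.24 and 0.41 at 12 h. The difference of 0.88 ± 0.16 (adjusted p = 0.0286) became 0.69 with the additive dye term (adjusted p = 0.345) and 0.24 with that term and without slide a (adjusted p = 0.796). Both features lie in the subarray of row 11 and column 1. With loess within subarrays the difference was 0.45 for pk8-a (adjusted p = 0.412) and 0.40 for ec2e (adjusted p = 0.305). Over 22 settings each, pk8-a passed in 7 with values from 0.26 to 1.67, and ec2e in 6 with values from 0.08 to 0.96. Other features of cncr1, pk8-a and ec2e lay between -0.30 and 0.17, and none passed.

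One more feature passed although its orientations disagreed. For bap-3b (AI712077), the difference was 1.20 ± 0.22 (adjusted p = 0.0343), made of 2.97 with UV on Cy5 and -0.57 with UV on Cy3. Its slides gave -2.63, 1.21 and 1.62 at 2 h and 0.60, 0.10, 1.02 and 0.68 at 12 h. Slide a of 2 h lay below all others, and slides c and d of 2 h above all 12 h slides. For the other named features that passed, the difference with UV on Cy3 alone was 2.62 for ypt1, -1.62 for rpp2 and 1.23 for cncr1. It was 0.26 for pk8-a, 0.20 for ec2e and 0.10 for AN3. Over all features, the difference kept 1 sign in both orientations for 58.0%, and the differences of both orientations had a correlation of -0.0294 across 19863 features.

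**Figure D3:**
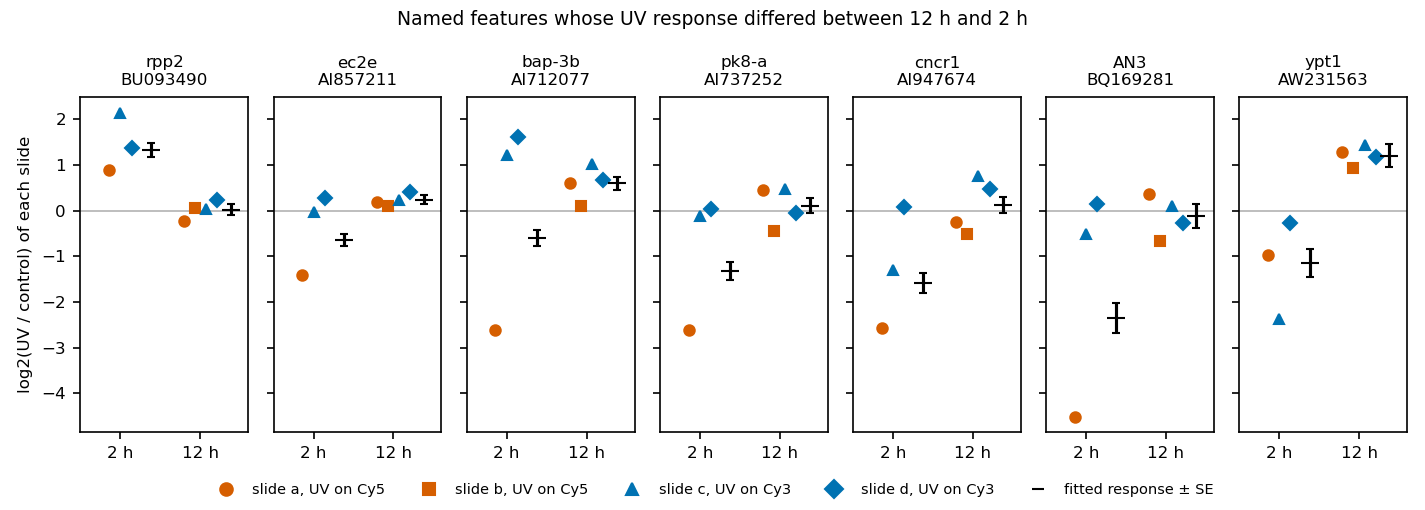
Log2(UV/control) of each slide at 2 h and 12 h for the 7 named features that passed, with slides a and b (UV on Cy5) in orange, slides c and d (UV on Cy3) in blue, and the fitted response with its SE in black. For rpp2 and ypt1 the slides of both times do not overlap, and for AN3, pk8-a, ec2e and bap-3b slide a of 2 h is far below the rest.

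Among features without a gene name, AI947505 and BQ529237 had the largest higher responses at 12 h, with differences of 2.83 ± 0.38 (adjusted p = 0.0105) and 2.60 ± 0.46 (adjusted p = 0.0248). AI947505 gave -3.12 and -1.35 on slides a and c of 2 h and -0.03 to 1.18 at 12 h, and was not measured on slide d of 2 h. On BQ529237 the 2 h slides disagreed, with -4.61, -1.14 and 1.39. BQ485064 and AW076351 had the largest lower ones, with -2.0 ± 0.36 (adjusted p = 0.037) and -1.87 ± 0.26 (adjusted p = 0.0332). Neither was measured on slide d of 2 h, and AW076351 was measured on only 2 slides of 12 h. Over the alternative settings, AW076351 passed in 3 of 17 (-2.89 to -0.87) and BQ485064 in 7 of 21 (-2.68 to -0.665). The higher features passed in 13 of 19 for AI947505 (0.73 to 3.06) and 10 of 23 for BQ529237 (0.42 to 3.23).

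Below the threshold, the higher features with the smallest p had 12 h minus 2 h differences of 1.32 ± 0.28 for the plasma membrane aquaporin PIP1-3 (AI947544, adjusted p = 0.053), 0.89 ± 0.19 for the catalase feature CAT3 (AI491472, adjusted p = 0.0551) and 1.56 ± 0.34 for the glutathione S-transferase gst12 (AI491665, adjusted p = 0.0585). These 3 did not pass, and all were called down at 2 h, with responses of -1.05, -0.62 and -1.62. On slides a, c and d of 2 h, PIP1-3 gave -1.36, -1.43 and -0.06 and gst12 gave -3.23, 0.25 and -0.25, so slide a alone was far below 0 for gst12. CAT3 (AI491472) gave 0.02 on slide a and -1.25 on slide c, and was not measured on slide d. On the lower side the values were -0.84 ± 0.19 for pme1 (AW061661, adjusted p = 0.0785), -0.59 ± 0.14 for the elongation factor elfa3 (BQ401279, adjusted p = 0.0892), -1.59 ± 0.40 for tacs1 (BQ279773, adjusted p = 0.0917) and -0.76 ± 0.22 for the nucleosome assembly gene nfa103 (AI795363, adjusted p = 0.134). The other 5 of that side were lpa1 (-0.52), MRP2 (-0.42), MNB1b (-0.51), vef101 (-0.51) and the phospholipid transfer protein PLTP (-0.47), with adjusted p from 0.157 to 0.184. Other features of these genes lay between -0.50 and 0.58, and none passed.

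Translation genes made up the largest list of measured features, 71 ribosomal proteins and translation factors. Of these, 1 was called higher and 1 lower (ec2e and rpp2 above), against 0.8% and 0.101% of all features. The median difference was -0.08. At 2 h, 11 of the 71 were up and 2 down, against 2.16% up and 2.57% down of all features. The 11 were 2 features of rpp2, rpp2a-3, elfa5, EF1A, 4 features of elfa3, ec2e (AI668498) and rpl17. elfa3 (BQ401279), elongation factor 1-alpha, gave 0.96, 0.75 and 0.83 on the 2 h slides and 0.42, 0.51, 0.04 and 0.16 on the 12 h slides, without overlap. Its response was 0.88 ± 0.11 at 2 h (adjusted p = 0.00422) and 0.28 ± 0.09 at 12 h (adjusted p = 0.126). EF1A (AI795694) had 0.72 at 2 h (adjusted p = 0.0108) and 0.28 at 12 h (adjusted p = 0.168), also without overlap. The 2 features down at 2 h, ec2e (AI857211) and elfa5 (AI833933), both lie in the subarray of row 11 and column 1. At 12 h, 4 of the 71 were up and 0 down, against 2.09% and 1.55% of all features. The 4 were ec2e (AI668498), rpl17, the stalk protein RP-P0 (0.50) and the initiation factor eif5a (0.39).

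Chromatin genes showed no called difference. None of 41 features of nucleosome assembly and HMG-box proteins passed, with a median difference of -0.21 against -0.02 for all features. At 2 h, 3 of them were up, nfa103 (AI795363, 1.07 ± 0.17, adjusted p = 0.0064), nfa104 (0.74) and nfd101 (0.45), and 1 was down, nfd106 (-0.69). Of all features, 2.16% were up and 2.57% down at 2 h. At 12 h none of the 41 was called. On the slides, nfa103 gave 1.08, 1.10 and 1.01 at 2 h and 0.08, 0.41, 0.38 and 0.35 at 12 h, and the groups did not overlap. The difference of nfd106 (AI665129) was 0.79 ± 0.18 (adjusted p = 0.0646), and with the additive dye term it was 0.47 on all slides and -0.32 without slide a of 2 h. On slides a, c and d of 2 h, nfd106 gave -2.03, 0.91 and 0.39. Of 51 histone modifiers and remodelers, none passed, 3 were down at 2 h and 1 at 12 h, against 2.57% and 1.55% of all features. The 3 were the histone deacetylase HDA108 and 2 features of mbd111. On slides a, c and d of 2 h, HDA108 gave -1.14, 0.018 and 0.225. There mbd111 gave -1.77, 0.978 and 0.738 (AW360493) and -0.563, -0.674 and -0.295 (BQ485616). HDA108 had a difference of 0.57 ± 0.13 (adjusted p = 0.0694), and the bromodomain gene brd103 one of 0.46 ± 0.13 (adjusted p = 0.152). Among 18 features of DNA replication and cell cycle genes, none passed. At 2 h only mad2, of the spindle checkpoint, was down, against 2.57% of all features. Its difference was 0.75 ± 0.20 (adjusted p = 0.111), and that of pcna2, the sliding clamp of DNA polymerase, was 0.35 ± 0.17 (adjusted p = 0.367). The 3 DNA repair features had none called, with -1.0 ± 0.47 for rad51a (adjusted p = 0.35) and 0.42 ± 0.30 for FEN1 (adjusted p = 0.539).

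Folding enzymes of the endoplasmic reticulum were up at 12 h for 6 of 28 features, against 2.09% of all features, and at 2 h for 1 of 28. None of the 28 passed for the difference, and the median difference was 0.00. The 6 were 2 features of calnexin (CNX), 1 of calreticulin (crt2) and 3 of protein disulfide isomerases (pdi, and pdi2 with 2 features). The largest response among them was that of pdi2 (AW352520), with 0.59, 0.67 and 1.22 at 2 h and 1.53, 1.03, 1.39 and 0.94 at 12 h. All 7 slides were above 0 and the times overlapped. It was 0.77 ± 0.29 at 2 h (adjusted p = 0.152) and 1.22 ± 0.24 at 12 h (adjusted p = 0.0241), and the difference of 0.46 had a 95% interval from -0.36 to 1.27. CNX (BQ528117) gave 0.79, 0.69 and 1.54 at 2 h and 1.20, 1.04, 0.78 and 0.90 at 12 h. Its difference of 0.03 had a 95% interval from -0.71 to 0.77, so that changes of that size either way were not resolved. The calreticulin feature called at 2 h, crt2 (AW066588), was at 1.47 ± 0.36 then (adjusted p = 0.0438) and at 0.65 ± 0.30 at 12 h (adjusted p = 0.248). The features with the smallest p for the difference were another CNX feature (AW257966) with 0.71 ± 0.19 (adjusted p = 0.103) and Txndc5 with 1.07 ± 0.35 (adjusted p = 0.188). Among 13 heat shock protein features none passed, with 1.07 ± 0.34 for hsp18a (adjusted p = 0.172) and 0.93 ± 0.36 for hsp70-4 (AW355857, adjusted p = 0.261).

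Antioxidant enzymes remove reactive oxygen. Of 20 features, none passed for the difference, 2 were up and 1 down at 2 h, and 3 were up and 2 down at 12 h. Of all features, 2.16% were up and 2.57% down at 2 h, and 2.09% up and 1.55% down at 12 h. CAT3 (AI999974), a catalase, gave 1.64, 1.16 and 1.94 at 2 h and 1.65, 1.77, 1.09 and 1.33 at 12 h. Its response was 3.02-fold at 2 h (adjusted p = 0.0255) and 2.75-fold at 12 h (adjusted p = 0.0226), and the slides of both times overlapped. The peroxidase PER42 was 2.15-fold up at 2 h (adjusted p = 0.0272) and 2.44-fold at 12 h (adjusted p = 0.00981). Sod4A, a copper and zinc superoxide dismutase, was up at 12 h (0.74, adjusted p = 0.0337) and at -0.08 at 2 h, and its difference was 0.82 ± 0.26 (adjusted p = 0.168). Its mean log2 intensity of 15.17 was below those of all 7 foreign sequences. The catalase cat2 (-0.67) and the iron superoxide dismutase fsd1 (-0.51) were down at 12 h. The 2 CAT3 features had opposite signs at 2 h, with AI491472 at -0.62 and AI999974 at 1.59. Of 20 glutathione S-transferase features, none passed and none was called at 12 h. At 2 h gst12 alone was down, against 2.57% of all features. For gst17 the difference was -0.52 ± 0.17 (adjusted p = 0.194).

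Among 14 features of flavonoid and phenylpropanoid genes, cncr1 alone was called for the difference, against 0.8% higher of all features. The median difference was 0.14, and a2, an enzyme of anthocyanin synthesis, had 0.49 ± 0.28 (adjusted p = 0.431). At 12 h 1 member was up, against 2.09% of all features. The member up at 12 h, MMT1 (0.64, adjusted p = 0.047), carries the name of a methionine methyltransferase, which does not make flavonoids. Of 22 features of defence proteins none passed. At 2 h 1 was up and 1 down, against 2.16% and 2.57% of all features. At 12 h 2 were up and 1 down, against 2.09% and 1.55% of all features. chn1, a chitinase, gave 1.25, 0.99 and 1.41 at 2 h and 1.92, 2.95, 2.28 and 2.09 at 12 h, without overlap. Its response of 2.31 ± 0.33 at 12 h (adjusted p = 0.0082) and 1.22 ± 0.41 at 2 h (adjusted p = 0.108) gave a difference of 1.09 ± 0.53 (adjusted p = 0.363). The cystatin cc4, a cysteine proteinase inhibitor, was up at 2 h (0.84, adjusted p = 0.0392) and had a difference of -0.54 ± 0.27 (adjusted p = 0.368). A second cystatin, cpi2, was up at 12 h (0.47). Of 12 jasmonate synthesis features none was called in any comparison, and 2 features of aoc1, allene oxide cyclase, had differences of 0.70 ± 0.23 and 1.26 ± 0.47 (adjusted p = 0.199 and 0.24).

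Of 6 features of cell death genes, 1 was up at 2 h and 4 were up at 12 h, against 2.16% and 2.09% of all features, and none passed for the difference. lls1, which breaks down chlorophyll and protects leaves from spreading lesions, was at 0.73 ± 0.19 at 2 h (adjusted p = 0.0504) and 1.10 ± 0.16 at 12 h (adjusted p = 0.00751). Its difference was 0.37 ± 0.24 (adjusted p = 0.498). hir3 (BQ134598), of the hypersensitive-induced reaction family, gave 0.19, 0.21 and 0.03 at 2 h and 0.81, 1.07, 0.47 and 0.37 at 12 h. The slides did not overlap, and the difference was 0.52 ± 0.21 (adjusted p = 0.281). Its normalized intensity was higher at 12 h than at 2 h both in control samples, by 1.30 ± 0.24 (adjusted p = 0.00419), and in UV samples, by 1.80 ± 0.24 (adjusted p = 0.000123).

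**Figure D4:**
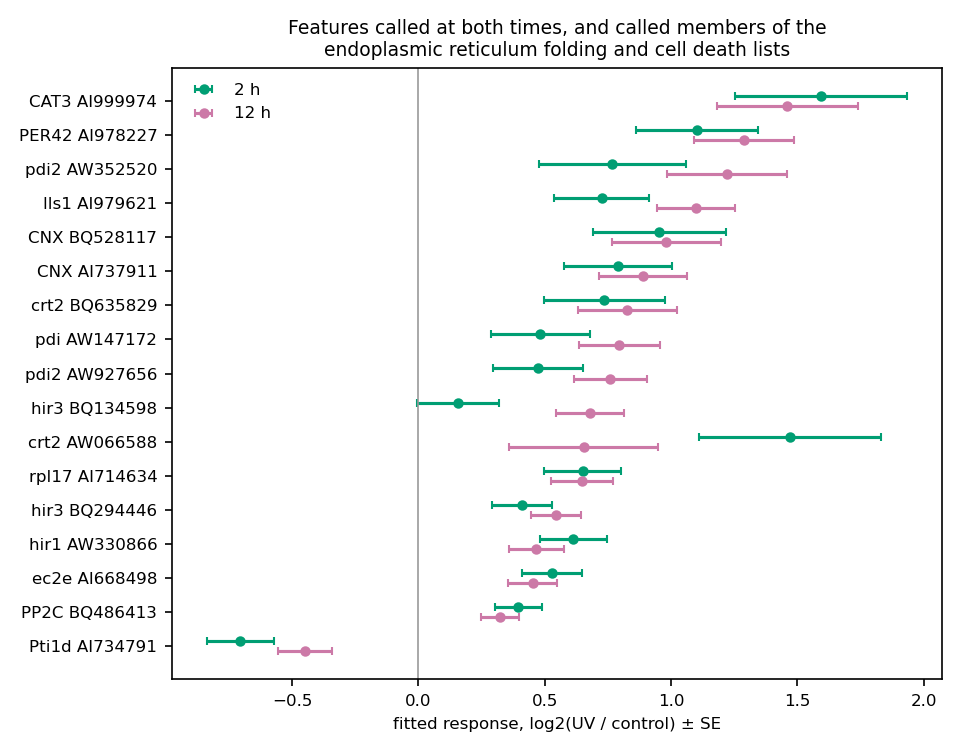
Fitted log2(UV/control) with its SE at 2 h (green) and 12 h (pink) for the 7 named features called at both times and for called members of the endoplasmic reticulum folding and cell death lists. Of the plotted pairs, crt2 (AW066588, 1.47 and 0.65) and hir3 (BQ134598, 0.16 and 0.68) lie farthest apart.

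Cell wall genes had a median difference of 0.17 over 43 features, 31 of them above 0, and none passed. RGP, a reversibly glycosylated polypeptide of wall synthesis, had the largest 12 h response of the list, 2.34 ± 0.30 (5.06-fold, adjusted p = 0.00337), against 1.28 ± 0.36 at 2 h (adjusted p = 0.065). Its slides gave 1.18, 1.26 and 1.5 at 2 h and 2.56, 2.24, 2.42 and 2.14 at 12 h, without overlap, and the difference of 1.06 had an adjusted p of 0.32. The cellulose synthase CesA-1 had 0.67 ± 0.20 (adjusted p = 0.167) and lop1 0.49 ± 0.19 (adjusted p = 0.256). Of 32 aquaporin features, none passed, and PIP1-3 and nip3a were down at 2 h, against 2.57% of all features. At 12 h the tonoplast channel tip1 was up (0.48) and tip2a down (-0.56), against 2.09% and 1.55% of all features. The nip3a difference was 0.90 ± 0.23 (adjusted p = 0.0985), and its slides a, c and d of 2 h gave -1.725, 0.397 and -0.102. Of 43 cytoskeleton features, none passed. The profilin prf2 alone was down at 12 h (-0.64, adjusted p = 0.0415), against 1.55% of all features. Differences were -0.67 ± 0.24 for prf2 (adjusted p = 0.223) and -0.997 ± 0.42 for the alpha-tubulin tua5 (adjusted p = 0.297).

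The photosynthesis features called at either time were down. Of 19 features of light harvesting and electron transport, 1 was down at 2 h and 4 at 12 h, against 2.57% and 1.55% of all features. None was up or passed for the difference. The 4 were the antenna protein genes Lhcb5-2 (-0.87) and lhcb5 (AW927758, -0.64), the ferredoxin reductase L-FNRI (-0.68) and pgr5 of cyclic electron flow (-0.60). Lhcb5-2 gave -0.52, -0.12 and -0.60 at 2 h and -0.40, -1.19, -0.77 and -1.13 at 12 h, all below 0 and overlapping. For pgr5 the difference was -0.40 ± 0.17 (adjusted p = 0.295), and a further lhcb5 feature (AI612478) had 1.30 ± 0.51 (adjusted p = 0.266), with slide c of 2 h at -2.43. Of 22 features of the C4 cycle and carbon fixation, the C4 enzyme pdk1 (AI666262) alone was called, down at 12 h (-0.71, adjusted p = 0.0319). Of all features, 1.55% were down at 12 h. The malic enzyme genes me4 and me2 had differences of 0.36 ± 0.13 and 0.47 ± 0.22 (adjusted p = 0.233 and 0.34). The 14 leaf markers, which share members with both lists, had a median response of -0.40 at 2 h and -0.24 at 12 h, and their smallest p were those of lhcb5 (AI612478) above and gpa1 (AW054541), with a difference of -0.55 ± 0.28 (adjusted p = 0.394). For the 9 kernel and root features, none was called and the median difference was 0.34, with glb1 (AW261338) at 0.45 and wx1 (AI833967) at 0.38 (adjusted p = 0.212 and 0.282).

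Of 39 sucrose and starch features, none passed. The sucrose phosphate synthase sps1 was down at 12 h (-0.88, adjusted p = 0.0171), against 1.55% of all features. The starch synthase gene du1 was down at 2 h (-0.46), against 2.57% of all features. The transporter bt1 and the cell wall invertase mn1 had differences of -0.45 ± 0.15 and 0.44 ± 0.17 (adjusted p = 0.198 and 0.263). Of 29 glycolysis and fermentation features, none passed, with a median difference of -0.16. The alcohol dehydrogenase adh1 had 0.73 ± 0.19 (adjusted p = 0.0992), and the glyceraldehyde phosphate dehydrogenase gpc3 had -0.56 ± 0.20 (adjusted p = 0.221). Nitrite reductase (NIR, AI947717), of nitrogen assimilation, had 1.67 ± 0.36 (adjusted p = 0.0646) and another NIR feature (AI861177) 0.23 ± 0.12 (adjusted p = 0.388). On slides a, c and d of 2 h, AI947717 gave -2.50, -0.88 and 0.63. The bZIP factors OBF3.1 and OBF1 had 0.70 ± 0.17 (adjusted p = 0.0807) and 0.88 ± 0.33 (adjusted p = 0.247). With the additive dye term OBF3.1 was at 0.42 on all slides and at -0.26 without slide a of 2 h. In cytokinin signalling, the phosphotransfer protein HP1 had 0.84 ± 0.30 and the histidine kinase hk3 had 0.47 ± 0.19 (adjusted p = 0.232 and 0.289). No feature of the last 3 groups was called for the difference.

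**Figure D5:**
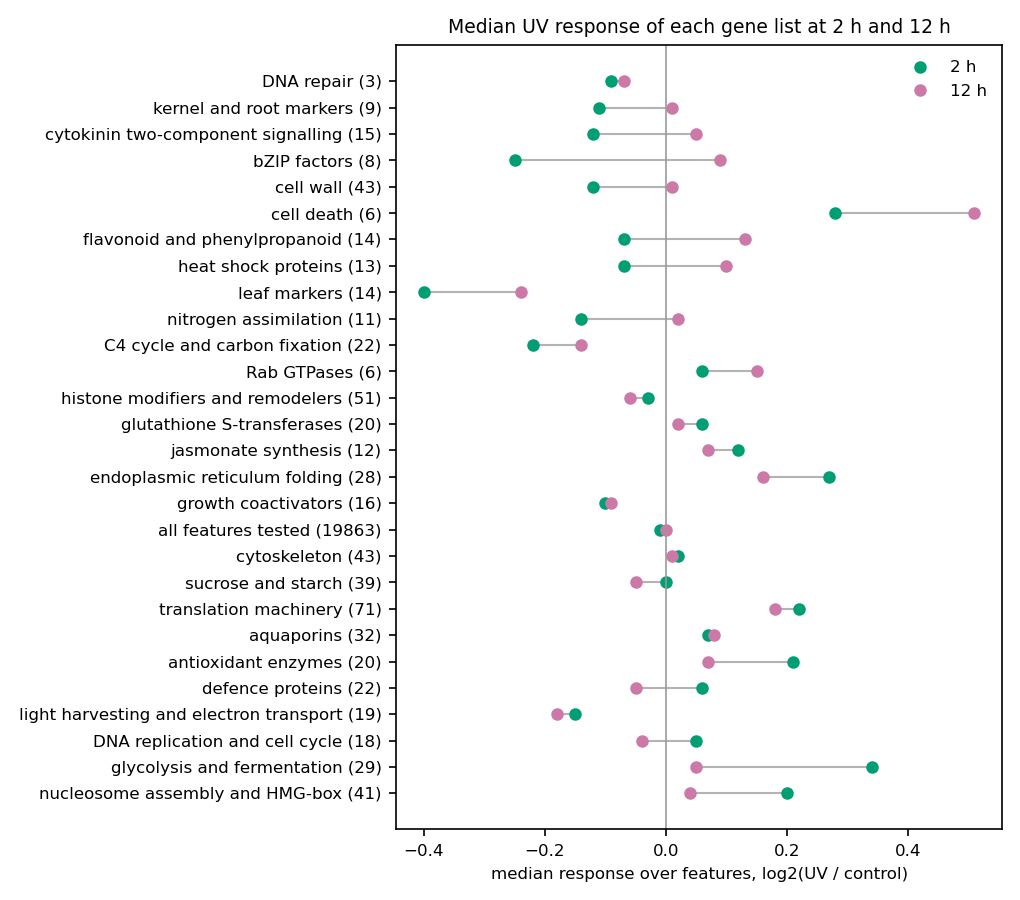
Median response of each gene list at 2 h (green) and 12 h (pink), as log2(UV/control) over its features, whose number is in parentheses, sorted by the median difference. All features together lie at -0.01 and 0.00, leaf markers at -0.40 and -0.24, and cell death genes at 0.28 and 0.51.

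Of 939 features called at 2 h and 724 at 12 h, 116 were called at both, and 105 of these had the same sign. The 116 are 12.4% of the features called at 2 h, against 3.64% of all features called at 12 h, and 16% of those called at 12 h, against 4.73% of all called at 2 h. The 2 h and 12 h responses correlated at r = 0.0894 across 19863 features of the same slides. Among named features, 57 were called at 2 h, 62 at 12 h and 7 at both, always with 1 sign. Up at both were CAT3 (AI999974), PER42, hir1 (AW330866), the protein phosphatase PP2C (BQ486413), rpl17 and ec2e (AI668498), and down at both was Pti1d, a kinase of the Pti1 family. Their differences were not resolved from 0, with 95% intervals from -0.33 to 0.19 for PP2C, from -0.43 to 0.42 for rpl17, from -0.41 to 0.26 for ec2e, from -0.52 to 0.23 for hir1, from -0.49 to 0.87 for PER42, from -1.09 to 0.83 for CAT3 and from -0.11 to 0.63 for Pti1d.

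The channels were also compared between times within each treatment, on 14226 features measured on all 19 slides. Control samples differed between 12 h and 2 h for 385 features (2.71%), 257 higher (1.81%) and 128 lower (0.9%). UV samples differed for 168 features (1.18%), 123 higher (0.865%) and 45 lower (0.316%), and 114 features were called in both. The control count was 117 without slide a of 12 h, 211 without slide c, 240 without slide b and 228 without slide c of 2 h. The UV count was 50 without slide a of 2 h, 90 without slide d, and 79, 57 and 55 without slides a, b and c of 12 h. Of 846 named features in this fit, 35 were called in controls (25 higher, 10 lower) and 15 in UV samples (12 higher, 3 lower), with 13 in both. The mitochondrial uncoupling protein PUMP was higher at 12 h by 0.95 ± 0.15 in controls (adjusted p = 0.00101) and by 0.81 ± 0.15 in UV samples (adjusted p = 0.00649). The phosphofructokinase gene pfk1 was higher by 1.31 ± 0.20 in controls (adjusted p = 0.000366) and by 1.25 ± 0.20 in UV samples (adjusted p = 0.000956), and its UV response was -0.41 at 2 h and -0.46 at 12 h (adjusted p = 0.0736 and 0.0337). MNB1b was higher by 1.68 ± 0.22 in controls (adjusted p = 5.54e-05) and by 1.19 ± 0.22 in UV samples (adjusted p = 0.00455). Time of day and length of the treatment cannot be told apart in these values, and these genes were chosen after their values were seen. Of the 179 features with a called difference of the UV response, 115 were in this fit, and 11 of them were called in controls and 3 in UV samples.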

How the data were processed

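Per the labels, scanned slides were gridded with TIGR Spotfinder, and the deposited files hold 1 linear intensity per spot and channel. Scanner and background treatment are not given in the sources used here. The series matrix holds a deposited score of the authors whose scale and centring stay unknown (column medians 12.24 to 12.35), and its log ratios correlated with those of the intensities at r from 0.689 to 0.845 per slide. It served as an alternative.

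Intensities were corrected with normexp (offset 50) and normalized by loess (span 0.3) within slides in limma 3.58.1 (R 4.3.3), leaving out 124 special spots of 20231 positions. Log ratios of all 19 slides were fitted with time by orientation means (9 residual and 3 prior degrees of freedom). The contrast was the mean over orientations of 12 h minus 2 h, with Benjamini-Hochberg adjustment over 19863 features. A feature was tested when each combination of time and orientation had at least 1 slide, a filter set during the work. Channels were fitted separately (Aquantile, lmscFit, correlation 0.786). Slide weights were estimated with time and dye terms, because 1 combination held a single slide. The fit was tested on simulated data.

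The platform's gene table named 1165 features of 684 genes, with symbols from RefSeq. Different features of a gene were kept apart. Named were up to 15 features called in each direction with 1 sign in both orientations, filled to 10 by smallest p, 2 features per list by p, and 2 unnamed features per direction. Members called at 1 time were named by that call. Lists were edited by gene name. Members and lists were chosen with earlier results of these data known. The title gave the replicate letter where the source label differed.

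The letters were not taken as pairs across times. Across 18434 features, slide c minus d at 2 h and at 12 h correlated at -0.187. The features share these slides, and letters a and b were not checked. The correlation therefore cannot tell whether a letter marks the same plants at both times.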

Additional observations from a re-analysis of the deposited data

Results flagged for a closer look

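The 4 slides of 12 h hold both dye orientations, and many of the features checked were chosen by their results. The count below therefore cannot be set against chance. In 5 of 120 features checked, 1 of the 4 slides of 12 h stood apart from the other 3. Its log ratio was 0.47 on slide c for CAT3 (AI491472), -1.26 on slide b for gst12 (AI491665), 0.42 on slide c for lop1 (BQ485966), 0.31 on slide b for crt2 (AW066588) and -0.60 on slide d for pfk1 (AW927912).

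Among the features named here, the response at 12 h differed from that at 2 h, by the test of the difference itself, by 2.35 for ypt1 (AW231563), 1.71 for cncr1 (AI947674), 2.23 for AN3 (BQ169281), 1.44 for pk8-a (AI737252), 0.88 for ec2e (AI857211), 1.20 for bap-3b (AI712077) and -1.30 for rpp2 (BU093490). Unnamed features gave 2.83 (AI947505), 2.60 (BQ529237), -1.87 (AW076351) and -2.0 (BQ485064).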

How the results depend on the processing

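Of 179 features whose response differed between the times, the count became 435 without background correction (401 higher and 34 lower), 30 with scaling between slides, 49 with slide weights, 2 with an additive dye term, 1 without a dye term and 0 with the 7 slides alone (2699 at an unadjusted p under 0.05). The fit with the letter as a replicate block gave 1, and unpaired channels with no replicate block gave 0 (332 at an unadjusted p under 0.05). Leaving out each slide in turn gave 33 to 1101, and the fits without slide a of 2 h also have the additive dye term. In settings added after seeing the data, 49 passed on the slides with UV on Cy3 only, 23 of them among the 179, and 60 passed without rows 9 to 11 of subarray column 1. The other 7 settings that kept all slides gave 131 to 254. For these moves, beyond fewer slides or features tested, the cause was not tested.

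The 939 responses at 2 h became 1515 with median centring, 84 with scaling between slides, 415 without a dye term, 117 with the 7 slides alone, 134 with slide weights, 706 with the replicate block, 1 with unpaired channels, 1929 on UV-on-Cy3 slides only and 569 without rows 9 to 11 of column 1. The 724 at 12 h became 1198 without background correction, 237 with median centring, 21 with the 7 slides alone, 672 with the replicate block, 14 with unpaired channels, 1629 with slide weights and 1 on UV-on-Cy3 slides only. Leaving out slides gave 303 to 1607 at 2 h and 16 to 791 at 12 h. Changes between times were 117 to 433 in control samples (439 with quantile normalization) and 50 to 165 in UV samples (185).

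Some differences turned sign on UV-on-Cy3 slides only: bap-3b (-0.57), nfd106 (-0.24), pme1 (0.38), OBF3.1 (-0.37), Sod4A (-0.28), aoc1 (AI691968, -0.079), a2 (-0.16), Pti1d (-0.27) and hir1 (0.051). Leaving out single slides gave -0.44 to 1.33 for bap-3b, -0.32 to 0.92 for nfd106, -0.255 to 0.80 for OBF3.1, -0.22 to 0.79 for aoc1, -0.042 to 1.17 for HP1 and -0.30 to 0.39 for Pti1d, the lowest each without slide a of 2 h. With loess within subarrays they did for pme1 (0.071), aoc1 (-0.51), Pti1d (-0.15) and PP2C (0.011), and with the authors' deposited processed values for pme1 (0.047), aoc1 (-0.031), wx1 (-0.090), Pti1d (-0.064) and PER42 (-0.049). With scaling they did for hir1 (0.018), PP2C (0.006), ec2e (AI668498, 0.054), CAT3 (AI999974, 0.198) and rpl17 (0.116), and with median centring for cc4 (0.043) and CAT3 (0.173). CAT3 gave 0.116 without background correction and -0.39 to 0.063 without single slides. Pti1d gave -0.010 and rpl17 0.075 without a dye term, and rpl17 gave 0.008 with an additive one and -0.11 to 0.10 without single slides.

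Responses at 2 h turned sign on UV-on-Cy3 slides only for ec2e (AI857211, 0.125), gst12 (0.002), nfd106 (0.65), HDA108 (0.121), OBF3.1 (0.86), nip3a (0.148), mbd111 (AW360493, 0.86) and Pti1d (0.097). Leaving out single slides gave -0.82 to 0.42 for nfd106, -0.58 to 0.40 for OBF3.1, -0.91 to 0.048 for nip3a and -0.52 to 0.43 for mbd111, the highest each without slide a of 2 h. elfa5 (AI833933) gave 0.074 with loess within subarrays and 0.242 with the authors' deposited processed values.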
